A study of Rattus norvegicus with 16 samples.

Results

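The CA1 and CA3 fields of rat hippocampal slices kept in culture were compared 12 h into a time course of oxidative stress, with 2 arrays of each field. These are 4 of the 16 Affymetrix arrays of the series, which holds both fields at T0, 30 min, 3 h and 12 h with 2 biological replicates of each. The 4 arrays were chosen by field and time alone, and the CA1 and CA3 arrays with the same replicate number were taken as a pair. All 8 groups are slice cultures of rat; the labels state no strain, no age, no stress agent or dose, nor whether T0 came before it, nor whether a replicate was 1 animal or a pool. Unless another fit is named, the p-values below measure the spread of the pair differences within a time, shared over the 8 pairs of the 4 times. That spread may therefore be partly technical. Every value is a log2 level deposited by the authors after RMA (robust multi-array average), so that a difference of 1 is a 2-fold difference, and differences are CA1 minus CA3 with a moderated standard error after ±.

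CA1 and CA3 are neighbouring fields of pyramidal neurons in the hippocampal circuit. CA3 neurons receive the mossy fibres of the dentate gyrus and send the Schaffer collaterals to CA1, and CA1 is the main output of the hippocampus. CA1 neurons are known for dying after ischaemia or oxidative stress that CA3 neurons survive. The fields are told apart by genes such as Wfs1, Mpped1 and Fibcd1 for CA1 and Grik4 for CA3, while Pcp4 marks the small CA2 field between them. The arrays measure bulk tissue, in which fewer cells of a type and less RNA per cell cannot be told apart.

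At 12 h the genes that stood higher in CA1 included pyramidal field markers (Mpped1, Pou3f1, Dcn, Fibcd1), the surface receptor Adgrl2, the ubiquitin ligase Mylip and genes of neuronal activity (Arc, Junb, Rgs2), and the genes that stood lower included myelin genes (Mbp, Mag, Pllp, Tspan2) and CA3 markers (Grik4, Nptx1). They differed by about 1 to 3 log2 units in the same direction in both pairs. None of these genes passed the test across all probe sets. Of 15866 probe sets, 1 passed at an adjusted p under 0.05, a share of 0.0063%, and it was lower in CA1; 0 were higher. At an unadjusted p under 0.05 there were 710, against 793 for a share of 0.05 of all probe sets.

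The probe set that passed, 1374787_at, is without a gene name in the tables used here. In the replicate 1 pair its level was 4.50 in CA1 and 7.18 in CA3, and in the replicate 2 pair 6.94 and 9.57. CA1 was thus lower in each pair by nearly the same amount, while replicate 2 was higher than replicate 1 in both fields. The difference was -2.65 ± 0.22 (adjusted p = 0.01153). At the earlier times it was -0.05 at T0, 0.03 at 30 min and -0.30 at 3 h. The mean level in CA3 was 8.37 at 12 h, above every earlier array of either field, of which the highest was 7.03. The call rests on the pairing, on both 12 h pairs and on the form of the variance prior: the adjusted p was 1 without the pairs, 0.146 without replicate 1, 0.342 without replicate 2 and 0.606 with a trended, robust prior.

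The pair differences agreed little across genes. Over 10411 genes, each taken by its probe set with the highest mean, the differences of the 2 pairs at 12 h correlated at r = 0.11 as a description across genes, and 46.0% had the same sign. A difference of at least 1 in both pairs was seen for 20 genes higher in CA1 (0.192%) and for 37 lower (0.355%). At T0 the same counts were 2 higher (0.0192%) and 28 lower (0.269%), at 30 min 43 (0.413%) and 8 (0.0768%), and at 3 h 2 (0.0192%) and 32 (0.307%). At 12 h the array controls followed the replicate number, not the field. The GAPDH 3' minus 5' signal, which grows as RNA is broken or copied short, was 1.36 and 1.29 on the CA1 and CA3 arrays of replicate 1 and 3.02 and 2.92 on those of replicate 2.

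**Figure D1:**
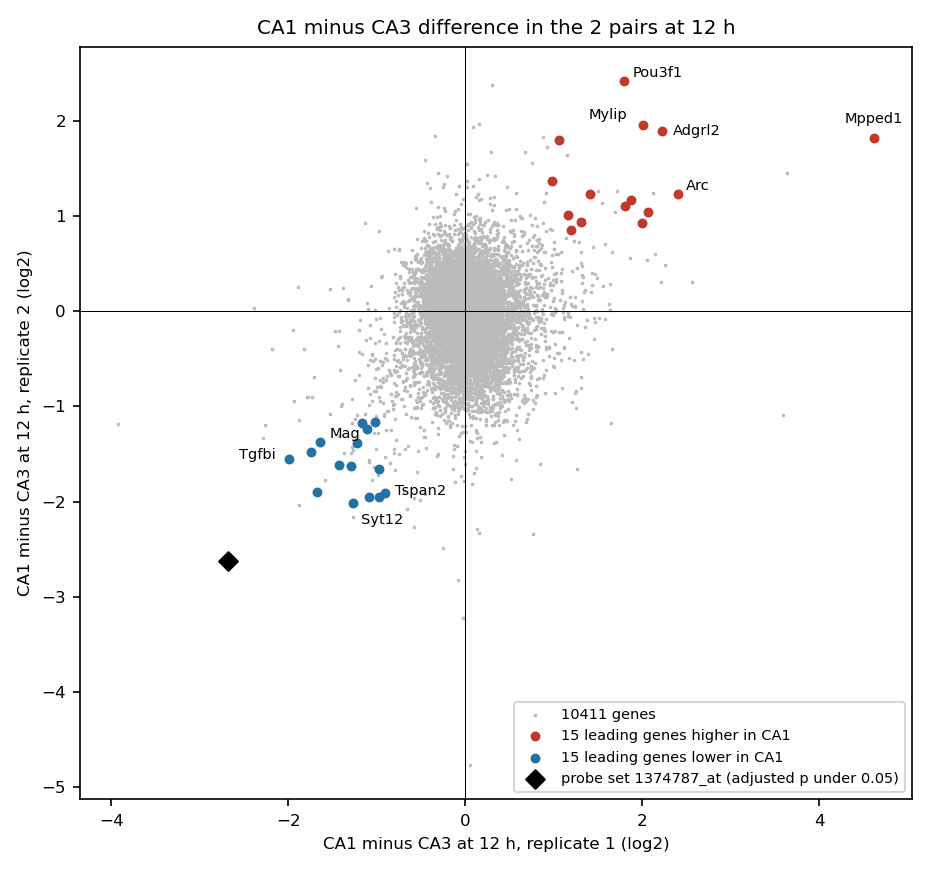
CA1 minus CA3 log2 differences at 12 h in the replicate 1 pair (x axis) and the replicate 2 pair (y axis) for 10411 genes (grey), the 15 leading genes of each direction (red, blue) and the probe set that passed (black). The cloud has little slope (r = 0.11), and 1374787_at lies at -2.68 and -2.62. The leading genes lie in the corners where both pairs agree because they were chosen for that.

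The CA1 marker list stood higher in CA1, as its label says. Of 10 measured genes of the list, 8 were above 0 and 0 passed; the median was 1.04, against 0.0004 over all genes. With arrays not overlapping between the fields there were 7 of 10 higher in CA1, against 11.3% of all genes. Mpped1, a metallophosphoesterase domain protein, read 10.23 and 9.21 in CA1 and 5.61 and 7.39 in CA3. The lowest CA1 array stood above the highest CA3 array, and the field means differed 9.34-fold, by 3.22 ± 0.69 (adjusted p = 0.393). Pou3f1, a POU domain transcription factor, read 5.38 and 6.21 in CA1 against 3.58 and 3.79 in CA3. Its CA3 values lay close together near the bottom of the scale, and the difference was 2.11 ± 0.32 (adjusted p = 0.162).

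Fibcd1, a receptor that binds acetylated groups, read 7.17 and 6.29 in CA1 and 5.05 on both CA3 arrays, a difference of 1.68 ± 0.45 (adjusted p = 0.640). Dcn, the matrix proteoglycan decorin, read 7.79 and 6.91 in CA1 and 4.16 and 5.46 in CA3, a difference of 2.54 ± 0.59 (adjusted p = 0.486). Dcn is a gene of fibroblasts too and stands in both lists. Lum, a fibroblast proteoglycan of the same family, went the other way at -2.36 ± 0.88, through 1 CA3 array at 8.90 against 4.13 to 4.93 on the other 3; without that pair it was 0.051. The fibroblast, meningeal and choroid plexus list had a median of 0.03 over 15 genes, with mean levels of 5.53 and 5.48 in CA1 and 5.37 and 5.61 in CA3; its part in the Dcn value was not tested. Of the other CA1 markers, Gpr161, a ciliary receptor, stood at 1.37 ± 0.41, Wfs1, a membrane protein of the endoplasmic reticulum, at 0.70 ± 0.27 (0.21 by a second probe set) and Ccn3, a secreted matrix protein, at 0.57 ± 0.24. Htr1a (0.17), Man1a1 (-0.00) and Tle1 (-0.29) lay near 0.

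The CA3 list was lower in CA1 for 5 of its 8 measured genes, of which 0 passed, with a median of -0.56. Grik4, a kainate receptor subunit of mossy fibre synapses, read 5.75 and 5.93 in CA1 and 7.53 and 6.83 in CA3. The fields did not overlap, and the difference was -1.34 ± 0.30 (adjusted p = 0.416). Nptx1, a secreted pentraxin that clusters AMPA receptors, read 9.09 and 10.51 in CA1 and 11.36 and 11.71 in CA3, a difference of -1.73 ± 0.59 (adjusted p = 0.999). Chgb, a secretory granule protein, stood at -1.22 ± 0.54 and Dkk3, a secreted glycoprotein, at -0.75 ± 0.35 (0.13 by a second probe set). Bok (0.23, and 0.08 by a second probe set), Fmo1 (0.19) and Prkcd (0.15) were slightly higher in CA1, and Spock1 was at -0.36.

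Among the CA2 markers, with a median of -0.11 over 11 genes and 0 passed, Pcp4 was the lowest. It was the only gene of the list whose fields did not overlap. Pcp4, a calmodulin-binding peptide, read 9.77 and 9.00 in CA1 and 10.75 and 10.65 in CA3, a difference of -1.32 ± 0.26 (adjusted p = 0.327). It was lower in CA1 in all 8 pairs of the series, with -2.32 at T0. Of the other CA2 genes, Fgf2 stood at 0.27, Rgs14 at 0.26, Ptpn5 at 0.21, Amigo2 at -0.13 and Necab2 at -0.11. Vcan stood at -0.87 ± 0.54, from 0.08 in the replicate 1 pair and -1.81 in the replicate 2 pair. Its other probe sets gave 0.11, 0.11, -0.31 and 0.03. In the whole list 4 genes were above 0 and 7 below. The dentate granule cell list had a median of -0.04 over 8 genes, with Stxbp6, the SNARE-binding protein amisyn, at -1.09 ± 0.18 (adjusted p = 0.178).

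**Figure D2:**
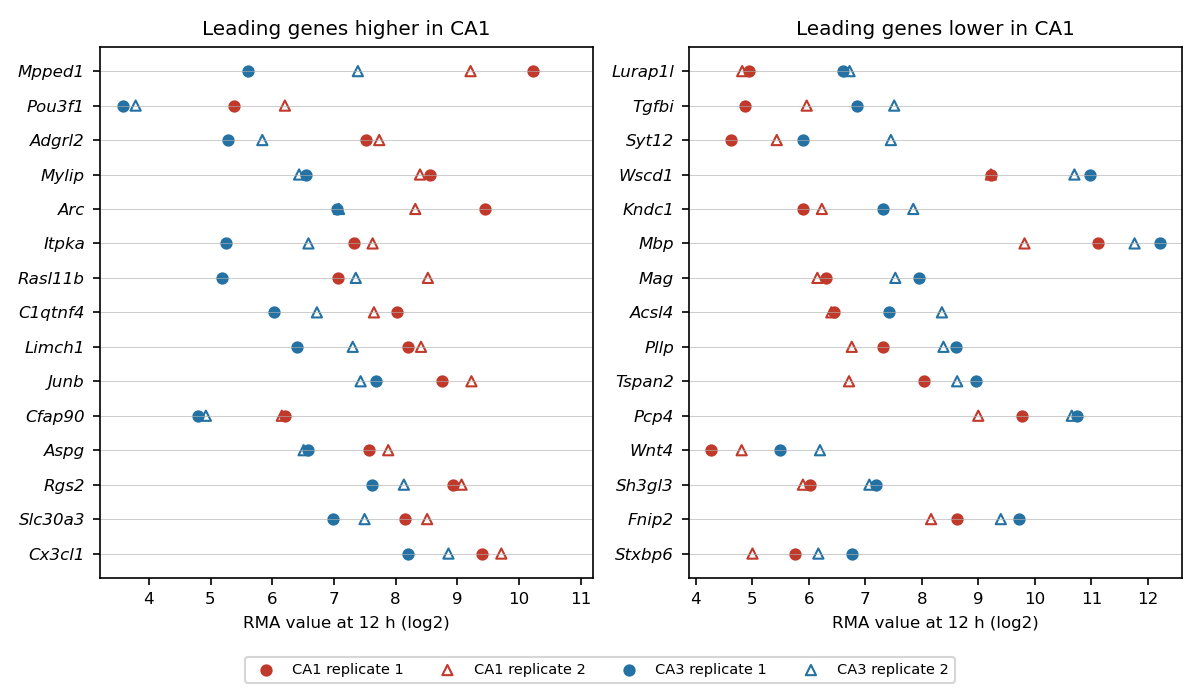
RMA values (log2, x axis) at 12 h of the 15 leading genes higher in CA1 (left) and lower in CA1 (right); red is CA1, blue is CA3, filled circles are replicate 1 and open triangles replicate 2. The genes were chosen from these same data by unadjusted p. The colours are apart in every row except Rasl11b, whose replicate 2 CA3 value (7.35) lies above its replicate 1 CA1 value (7.06).

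Most of the 15 leading genes higher in CA1 are not in the CA1 marker list. Adgrl2, a latrophilin that binds partners across the synapse, read 7.51 and 7.73 in CA1 and 5.29 and 5.84 in CA3, a difference of 2.06 ± 0.42 (adjusted p = 0.386). A second, dimmer probe set of Adgrl2 gave 0.65 ± 0.17. Mylip, the ubiquitin ligase that marks the LDL receptor for breakdown, read 8.55 and 8.40 in CA1 and 6.54 and 6.44 in CA3. Its replicates lay within 0.2 of each other in each field, and the difference was 1.98 ± 0.33 (adjusted p = 0.168). Itpka, the inositol trisphosphate kinase of dendritic spines, stood at 1.55 ± 0.32. Slc30a3, which loads zinc into synaptic vesicles, stood at 1.09 ± 0.19, and Cx3cl1, the neuronal chemokine fractalkine, at 1.03 ± 0.22. Rasl11b, C1qtnf4, Limch1, Cfap90 and Aspg, also among the 15, lay between 1.17 and 1.52, and a second probe set of Limch1 gave 1.21.

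Immediate early genes, which neurons switch on within minutes of synaptic activity and many cells after stress, stood on balance higher in CA1 at 12 h. Of 43 measured genes 32 were above 0, against 5212 of 10411 over all genes, and the median was 0.20, with 0.23 in each pair. The median was larger at 30 min (0.35), near 0 at T0 (0.03) and below 0 at 3 h (-0.16). None passed; at an unadjusted p under 0.05 there were 10 higher and 1 lower, against 2.17% and 2.84% of all genes. Arc, which moves AMPA receptors off the synapse, read 9.45 and 8.32 in CA1 and 7.04 and 7.08 in CA3. Its CA3 arrays were nearly equal, both CA1 arrays lay above them, and the difference was 1.82 ± 0.29 (adjusted p = 0.162).

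Junb, a subunit of the AP-1 transcription factor, read 8.75 and 9.23 in CA1 and 7.69 and 7.43 in CA3, a difference of 1.43 ± 0.31. Rgs2, which shortens G protein signals, read 8.94 and 9.07 in CA1 and 7.62 and 8.13 in CA3, a difference of 1.12 ± 0.22. Egr4, a zinc finger transcription factor, read 7.55 and 7.64 in CA1 and 6.63 and 6.40 in CA3, a difference of 1.08 ± 0.27. None of these 3 genes had overlapping fields, and their adjusted p-values were 0.411, 0.327 and 0.515. Ptgs2, the inducible cyclooxygenase, was at 1.21 ± 0.43, and the phosphatases Dusp6 and Dusp1, which switch off MAP kinases, at 0.92 ± 0.34 and 0.78 ± 0.19. The transcription factors Nr4a1 (0.84 ± 0.28) and Egr1 (0.81 ± 0.26) and the early gene Ier2 (0.68 ± 0.27) complete the 10. Egr2 was lower in CA1, at -0.84 ± 0.37, and Fos stood at 0.55 ± 0.34. A second probe set of Egr4 gave 0.18 and one of Rgs2 gave 1.16. Klf2 is listed near 0 (-0.06) by its brightest probe set, while its probe set 1376569_at stood at 1.92 ± 0.28 (adjusted p = 0.157), a value singled out after it was seen. The remaining probe sets of Klf2 gave -0.11, 0.27 and 0.25.

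Because these genes share known activity-driven control, their promoters were searched for TGACG, the core of the cAMP response element, on both strands. Those of Junb, Rgs2 and Egr4 are shown because they have the largest field differences among the genes that hold a match, so they were chosen for holding one. Each line gives the 250 bases before the RefSeq start on assembly GRCr8, 5′ to 3′ along the gene, with the match in capitals, as TGACG where it lies on the shown strand and as CGTCA where it lies on the other. Junb lies at chr19:40080876-40081125 on the plus strand, Rgs2 at chr13:58352667-58352916 on the minus strand and Egr4 at chr4:119607818-119608067 on the minus strand.
Junb: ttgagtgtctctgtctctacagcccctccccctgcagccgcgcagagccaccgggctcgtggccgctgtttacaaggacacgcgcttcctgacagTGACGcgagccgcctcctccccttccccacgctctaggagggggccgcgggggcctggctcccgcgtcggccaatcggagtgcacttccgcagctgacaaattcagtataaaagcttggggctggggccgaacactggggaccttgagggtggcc
Rgs2: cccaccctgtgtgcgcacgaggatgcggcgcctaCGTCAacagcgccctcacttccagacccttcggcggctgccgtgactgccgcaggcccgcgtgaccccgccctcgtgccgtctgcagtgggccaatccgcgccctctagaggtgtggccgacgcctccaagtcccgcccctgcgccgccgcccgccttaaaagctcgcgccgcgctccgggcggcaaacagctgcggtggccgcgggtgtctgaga
Egr4: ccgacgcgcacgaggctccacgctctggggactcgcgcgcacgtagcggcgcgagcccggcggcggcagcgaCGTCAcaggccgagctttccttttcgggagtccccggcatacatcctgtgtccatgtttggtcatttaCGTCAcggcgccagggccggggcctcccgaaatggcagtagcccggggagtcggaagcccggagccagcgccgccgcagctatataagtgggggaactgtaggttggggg
Junb and Rgs2 hold 1 match and Egr4 holds 2. Of the 10 early genes higher in CA1 at an unadjusted p under 0.05, 9 had a promoter entry (all but Arc) and 7 of these held a match on either strand (all but Ptgs2 and Dusp6), against 18.2% of 33469 rat promoter windows of the same length. The CArG box, the binding motif of serum response factor, was found in 1 of the 9 (Egr1), against 1.5% of all windows, and no CArG match shares bases with a TGACG match. The other early genes of the list were not searched, so these shares do not tell the 10 genes from early genes in general. A match is a run of letters and not a shown binding site.

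Myelin genes stood lower in CA1 as a group. Of 15 measured oligodendrocyte and myelin genes 14 were below 0 and 0 passed; the median was -0.81, with -0.90 in the replicate 1 pair and -0.82 in the replicate 2 pair. The fields did not overlap for 11 of 15, all lower in CA1, against 10.3% of all genes. Mag, an adhesion protein of the inner myelin wrap, read 6.30 and 6.15 in CA1 and 7.95 and 7.53 in CA3. The replicates lay close together, CA3 was 2.85-fold higher, and the difference was -1.51 ± 0.22 (adjusted p = 0.157). Mbp, the protein that compacts myelin, read 11.11 and 9.82 in CA1 and 12.20 and 11.76 in CA3, a difference of -1.52 ± 0.30 (adjusted p = 0.339), and -0.68 by a second probe set.

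Pllp, a membrane protein of myelin, stood at -1.46 ± 0.23 and the tetraspanin Tspan2 at -1.41 ± 0.25 (-0.91 by a second probe set). Enpp6, a choline phosphodiesterase of newly formed oligodendrocytes, was at -1.36 ± 0.29, the tight junction protein Cldn11 at -1.34 ± 0.28 and the myelin enzyme Cnp at -1.03 ± 0.25. Mal (0.20) was the 1 gene above 0. The offset was seen at the earlier times too, with medians over the list of -0.33 (T0), -0.97 (30 min) and -0.56 (3 h), and Mag, Mbp, Pllp and Tspan2 were lower in CA1 in all 8 pairs. The list's mean level was 6.84 and 6.33 on the CA1 arrays and 7.61 and 7.27 on the CA3 arrays. The precursor list, with 4 genes measured and 0 passed, gave 7.54 and 6.38 against 7.85 and 7.20, and its median was -0.17 in the replicate 1 pair and -0.72 in the replicate 2 pair. Its genes were mixed: the transcription factor Olig1 was at -0.51 and -1.98 in the 2 pairs with overlapping fields, Sox10, which is in the myelin list too, at -1.20 and -0.42, the growth factor receptor Pdgfra at 0.17 and -1.02 and the proteoglycan Cspg4 at 0.31 and 0.15.

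The other glial and vascular lists stood near 0. Astrocyte markers had a median of 0.03 over 16 genes, endothelial and mural markers 0.09 over 14 and microglia markers -0.12 over 18, with 0 passed in each. The microglia median was -0.38 in the replicate 1 pair and 0.12 in the replicate 2 pair. Aif1, a calcium-binding protein of microglia, stood at -0.81 ± 0.34. By a second probe set Aif1 was at 0.16, with pairs on either side of 0. The excitatory neuron list was level between the fields, with a median of 0.02 over 11 genes, mean levels of 7.74 and 7.84 in CA1 and 7.64 and 7.90 in CA3, and Slc17a7, the vesicular glutamate transporter, at -0.75 ± 0.58 (-0.27 by a second probe set). The interneuron list had a median of -0.12 over 12 genes. In it the neuropeptides Cck (1.37 ± 0.43) and Vip (1.26 ± 0.43) were higher in CA1. Reln, a secreted guidance protein, was lower (-0.75 ± 0.23, and -0.22 by a second probe set). The share of these cell types in the differences of single genes was not tested.

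**Figure D3:**
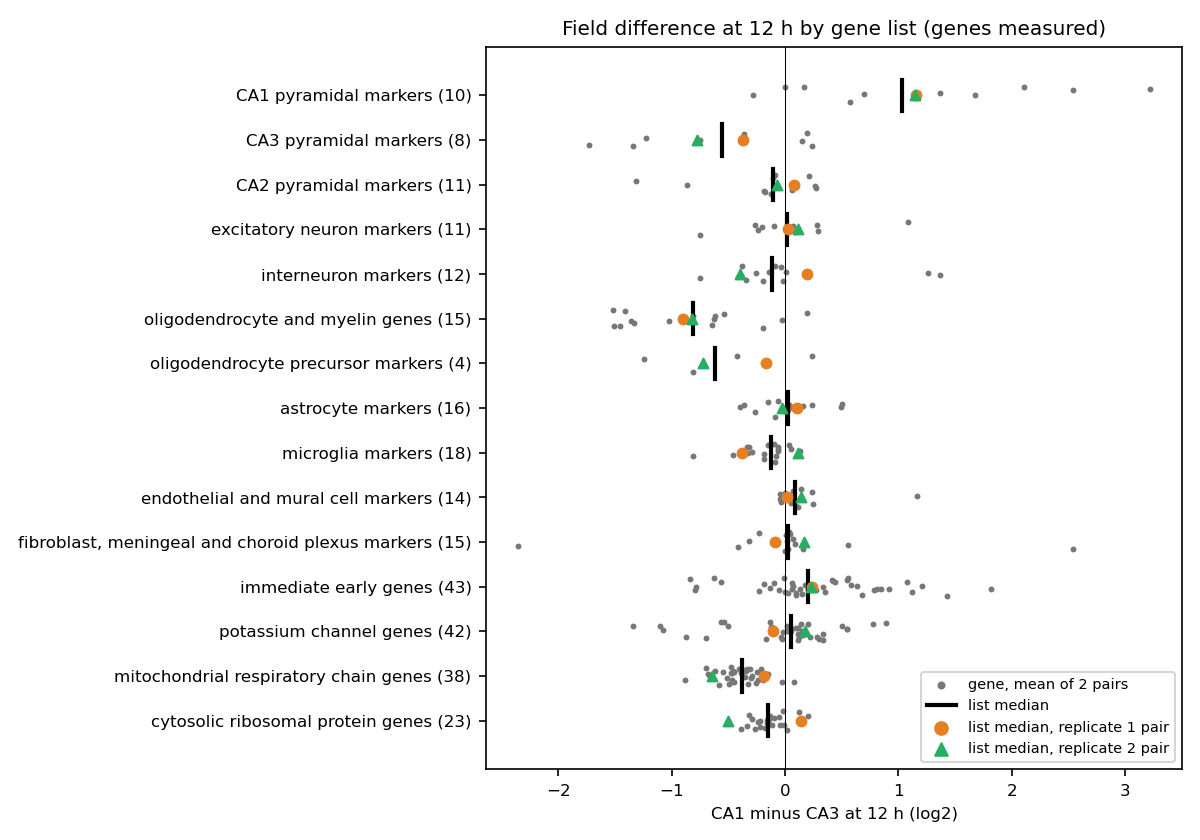
CA1 minus CA3 log2 differences at 12 h (x axis) of the measured genes of 15 lists (grey points, 1 per gene; number measured in brackets), with the list median over the mean of both pairs (bar) and in the replicate 1 (circle) and replicate 2 (triangle) pair. The medians of CA1 markers (1.04) and of myelin genes (-0.81) agree between the pairs, while those of respiratory chain genes differ in size (-0.18, -0.65) and those of ribosomal protein genes in sign (0.14, -0.50).

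Channel genes as lists had medians near 0, while synapse, calcium binding and cytoskeleton genes lay more often below 0 than above. Medians were 0.05 over 25 calcium and sodium channel genes and 0.05 over 42 potassium channel genes. Synaptic vesicle and release genes were below 0 for 21 of 29 (median -0.16), and the fields did not overlap for 6 lower and 1 higher. Calcium binding and calmodulin kinase genes were below 0 for 19 of 29 (median -0.14), with 7 lower and 4 higher not overlapping. Neuronal growth and cytoskeleton genes were below 0 for 20 of 29 (median -0.19), with 8 lower and 0 higher not overlapping, and pair medians of -0.06 and -0.47. Over all genes, the fields did not overlap for 10.3% lower and 11.3% higher in CA1, against which these counts are to be read. None passed in any of these lists.

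Ncald, a neuronal calcium sensor, read 7.92 and 7.80 in CA1 and 9.80 and 9.83 in CA3, a difference of -1.96 ± 0.41 (adjusted p = 0.393) that was below 0 in all 8 pairs. Vsnl1, a related sensor, stood at -1.31 ± 0.41 and by a second probe set at -0.76. The calcium channel subunit Cacna2d3 was at -1.81 ± 0.69. Cacnb2, another subunit, was at -1.41 ± 0.40, but its other probe sets gave -0.76 and 0.06. Of the potassium channel genes, 3 were higher and 6 lower at an unadjusted p under 0.05, which is to be read against 2.17% and 2.84% of all genes; Kcna1 was at -1.10 ± 0.37 and Kcnk2, a leak channel, at 0.89 ± 0.33.

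For several of these genes the value rests on the brightest probe set. Kcnip2, a potassium channel partner, was at -1.35 ± 0.43, and at 0.04 and 0.11 by its other probe sets. Cplx1, the complexin of the release machinery, was at -1.36 ± 0.57 and by a second probe set at -0.15, and the GABA-B receptor subunit Gabbr2 at -1.16 ± 0.31 and 0.04. The neurofilament Nefl was at -1.39 ± 0.44 and -1.47.

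Syt12, a synaptotagmin of synaptic vesicles, read 4.63 and 5.43 in CA1 and 5.90 and 7.45 in CA3, a difference of -1.65 ± 0.28 (adjusted p = 0.178). Tgfbi, a matrix protein induced by TGF-beta, read 4.87 and 5.96 in CA1 and 6.86 and 7.51 in CA3, a difference of -1.77 ± 0.26 (adjusted p = 0.161). For both genes CA1 was lower in each pair with no overlap between the fields. Wscd1 read 9.23 and 9.22 in CA1 and 10.96 and 10.70 in CA3, a difference of -1.61 ± 0.22 (adjusted p = 0.157). The ligand Wnt4 stood at -1.30 ± 0.20, Acsl4, which loads arachidonate onto coenzyme A, at -1.46 ± 0.30, the endophilin Sh3gl3 at -1.17 ± 0.19 and Fnip2, a folliculin partner, at -1.17 ± 0.21; Lurap1l and Kndc1 were at -1.79 and -1.52.

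Among stress and metabolism genes the list medians were small, and that of respiratory chain genes was the largest in size. Respiratory chain genes were below 0 for 37 of 38, with a median of -0.38 and 0 passed. The fields did not overlap for 17 lower and 0 higher, against 10.3% and 11.3% of all genes. The median was -0.18 in the replicate 1 pair and -0.65 in the replicate 2 pair. Cytosolic ribosomal protein genes had a median above 0 in the replicate 1 pair (0.14) and below 0 in the replicate 2 pair (-0.50). Ndufs1, a complex I subunit, read 8.18 and 6.10 in CA1 and 8.22 and 7.83 in CA3, so that its difference of -0.89 ± 0.37 came almost wholly from replicate 2. Uqcrc2, of complex III, was at -0.68 ± 0.21. Medians were -0.05 over 39 unfolded protein response genes and -0.02 over 27 Bcl2 family and caspase genes. Those of NRF2 targets (-0.02 over 34 genes) and heat shock genes (0.0004 over 16) came from pairs on either side of 0, at 0.17 and -0.26 for NRF2 targets and at 0.24 and -0.22 for heat shock genes. Within them the metallothionein Mt2A (0.90 ± 0.30), the small heat shock protein Cryab (0.92 ± 0.32) and the chaperone Hspa1a (0.72 ± 0.18) stood higher in CA1, and Chac1, which breaks down glutathione (-0.70 ± 0.25), and Bnip3, a mitophagy receptor (-0.72 ± 0.23), stood lower. Vegfa, the vascular growth factor, was at 0.89 ± 0.25, and at 0.12 by a second probe set.

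The field difference at 12 h was then set against the mean of the 3 other times. No probe set passed (0%), and the smallest adjusted p was 0.056, for 1374787_at (-2.55 ± 0.26). An unadjusted p under 0.05 was seen for 393, against 793 for a share of 0.05 of all probe sets. Against T0 alone none passed, 371 had an unadjusted p under 0.05, again against 793, and the smallest adjusted p was 0.250. By unadjusted p the leading genes with a higher difference at 12 h were Slc30a3 (1.34 ± 0.22), Cfap90 (1.47 ± 0.25), Arc (2.14 ± 0.34), Rprml (1.95 ± 0.36), Pou3f1 (1.89 ± 0.36) and Egr4 (1.53 ± 0.31), and those with a lower one Stxbp6 (-1.05 ± 0.21), Tgfbi (-1.40 ± 0.30), Syt12 (-1.44 ± 0.32) and Fnip2 (-1.06 ± 0.24). At T0 the means of Pou3f1 were 3.48 (CA1) and 3.58 (CA3), at 30 min 4.41 and 3.60, at 3 h 3.63 and 3.68, and at 12 h 5.79 and 3.69. Arc had means of 5.83 and 6.16 at T0 and of 8.88 and 7.06 at 12 h. In both genes the CA1 mean lay below the CA3 mean at T0, and the CA1 mean at 12 h was the highest of the 8 group means.

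Rprml, a gene related to the cell cycle regulator reprimo, stood lower in CA1 at T0 (4.66 against 6.47) and higher at 12 h (8.52 against 7.14). The means of Mpped1 likewise went from 4.42 (CA1) and 5.47 (CA3) at T0 to 9.72 and 6.50 at 12 h. They were 7.45 and 6.12 at 30 min and 5.85 and 5.26 at 3 h. The 12 h minus other times value of Mpped1 was 2.93 ± 0.80. The CA1 marker list as a whole was not higher in CA1 at T0, with a median of -0.04, and stood at 0.58 at 30 min. At 3 h its median was -0.02, from pairs that lay on either side of 0 (-0.45 and 0.47). Its mean level was 4.90 and 4.82 in CA1 at T0 and 6.61 and 6.51 at 12 h, while in CA3 it was 5.02 and 5.10 at T0 and 5.17 and 5.53 at 12 h. The excitatory neuron list's median was -0.76 at T0, against 0.02 at 12 h. The means of Syt12 were 5.03 (CA1) and 6.68 (CA3) at 12 h, against 4.15 and 4.52 at T0.

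**Figure D4:**
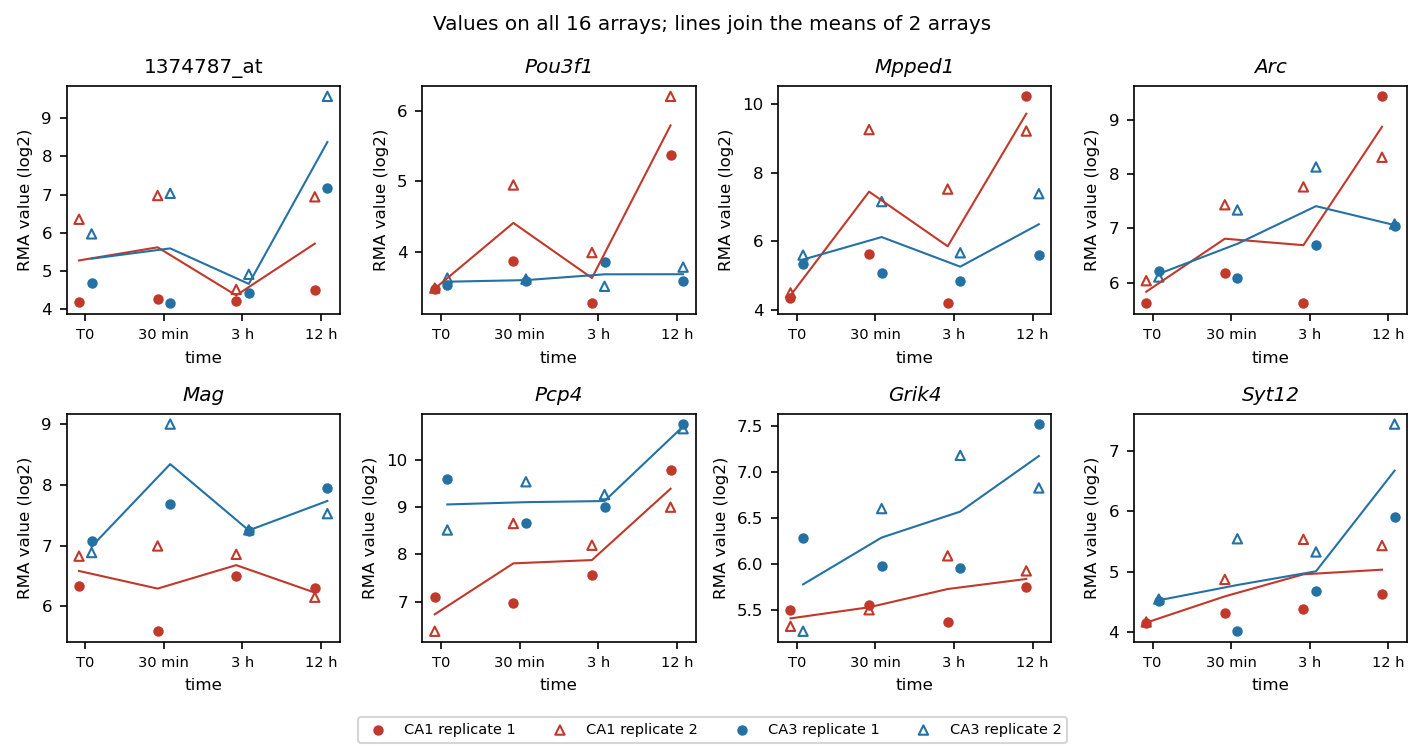
RMA values (log2, y axis) of 1374787_at and 7 genes on all 16 arrays by time (x axis, in order and not to scale); red is CA1, blue is CA3, filled circles are replicate 1, open triangles replicate 2, and lines join the means of 2 arrays. At 12 h Pou3f1 and Arc are higher in CA1, and 1374787_at and Syt12 are higher in CA3. Pou3f1 has a higher CA1 mean at 30 min as well (4.41 against 3.60), while Mag and Pcp4 are lower in CA1 at every time.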

How the data were processed

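RNA of cultured hippocampal slices was labelled in 2 cycles, per the labels' protocols, and hybridised to 16 Affymetrix rat arrays. The authors deposited log2 levels from RMA, which the submitters' processing notes name without a version. RMA puts all arrays on a common scale, so a difference is relative to the rest of the array. The array medians of the deposited values ran from 5.81 to 5.94. The number of arrays limits the precision.

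After 57 control probe sets were set aside, 15866 were tested; 12783 have 1 gene in the platform annotation, 312 several and 2771 none, and 12748 matched RefSeq. CA1 minus CA3 differences of the 8 pairs (same time and replicate number) were fitted with 4 time means in limma 3.58.1 (R 4.3.3), with 4 residual and 5.17 prior degrees of freedom and Benjamini-Hochberg adjustment over all probe sets. The titles number the replicates without saying what a number marks, and the pairs were set by that number. Deviations from group means correlated between same-numbered CA1 and CA3 arrays at 0.57 (T0), 0.67 (30 min), 0.58 (3 h) and 0.57 (12 h). The array controls followed the replicate number too, so these correlations do not show what a number marks.

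Gene lists (38, with 769 of 945 genes measured) are described by counts and medians. Genes to name were taken from those past the threshold. Others were the 15 per direction with the smallest unadjusted p, both pairs in the same direction and a difference of at least 1. Also eligible were the 5 largest of each list, all CA1, CA2 and CA3 markers, and the 10 per direction leading against the other times. Not all of these are named. A few other list members are named to complete a count. The genes, lists and comparison were chosen with earlier results of these data known. Tested on simulated data (5 sets of 15866 probe sets, 200 changed in each), the 12 h comparison recovered 34.6% of 2-fold and 84.6% of 4-fold differences, with 28 false calls in all. The simulated noise was normal and independent between probe sets, and each change was equal in both pairs. Real arrays need not meet these settings, so the shares do not tell how many real differences were missed.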

Additional observations from a re-analysis of the deposited data

Results flagged for a closer look

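All 38 lists were searched for medians on one side of 0 in both 12 h pairs and on the other in both T0 pairs. Only the CA1 pyramidal marker list and the excitatory neuron list were found. How many would be found with no difference between the times was not tested. The CA1 list was above 0 in both 12 h pairs and below 0, though close to it, in both T0 pairs. The medians were 1.16 and 1.15 at 12 h and -0.06 and -0.08 at T0, and the mean of the pair medians was 1.22 higher at 12 h. The excitatory neuron list had the same signs, with medians of 0.02 and 0.12 at 12 h and of -0.99 and -0.30 at T0, a mean that was 0.71 higher at 12 h. Its 12 h values were near 0, and with cyclic loess between arrays its 12 h median was -0.0185. The difference between the times was not tested for either list.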

How the results depend on the processing

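The number of probe sets past the threshold at 12 h, 1 in the paired fit, was 0 in the fit with no replicate block, 0 with the block as a random effect, 0 with only probe sets of a mean of at least 6 (which leaves 1374787_at out), 0 with a trended and robust prior, and 1 with cyclic loess between arrays or with centred differences. Leaving out 1 pair at a time gave 0 to 1, with 0 without either 12 h pair. The 2 pairs of 12 h alone gave 249 (92 higher, 157 lower in CA1), in a fit with 1 residual degree of freedom whose prior of 2039 gives nearly all probe sets the same variance, and the 4 arrays of 12 h alone with no replicate block gave 0. For 1374787_at the adjusted p ran from 6.997e-21 to 1. Against the mean of the other times the count was 0 in every alternative, block and no block, except 1 without T0 replicate 1, and leaving out 1 pair gave 0 to 1. Against T0 it was 0 throughout. For 92 genes and probe sets named in the text, 1463 alternative values were computed, of which 1387 kept direction and side of the threshold, 6 lost the threshold, 65 gained it (all in the fit of the 2 pairs alone) and 5 turned when a 12 h pair was left out. Without replicate 1 and without replicate 2 in turn, Bdnf was at -0.22 and 1.09, Man1a1 at 0.11 and -0.11, Htr1a at 0.35 and -0.012, Prkcd at 0.41 and -0.12 and Lum at -4.77 and 0.051. The causes were not tested. The CA1 marker median was 0.97 to 1.37 and the myelin median -1.35 to -0.73 over the alternatives in which they moved.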
